A study of Mus musculus with 6 samples.

Results

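The 10 cristae organising genes described here encode the scaffold that bends and anchors the inner mitochondrial membrane: 5 subunits of the mitochondrial contact site and cristae organising system (MICOS; Immt, Chchd3, Chchd6, Apoo and Apool), its outer membrane partner Samm50, the MICOS-associated proteins Chchd2 and Chchd10, and the prohibitins Phb and Phb2. They were taken by gene symbol from count tables of 49652 genes, and all 10 were found and passed the filter on low counts that left 18832 genes for testing. The data are bulk RNA-seq of muscle stem cells (satellite cells) sorted from hindlimb muscle of uninjured mice aged 8 to 10 weeks, positive for alpha-7 integrin and VCAM and negative for Sca1, CD45 and CD31. All animals belonged to the OPA1-Pax7-CreERT2 cross and had 5 days of tamoxifen by gavage, and cells were taken 3 days after it. The WT group was Cre negative and the KO group Cre positive (n = 3 libraries each). CreERT2 is a recombinase that tamoxifen activates, and Pax7 marks muscle stem cells, so recombination is directed at the sorted cells. The groups thus differed in Cre as well as in Opa1, no Cre-positive control was analysed here, and the labels do not say whether a library held 1 animal or a pool. P-values therefore measure the spread between these libraries, which may be technical in part. Xist and Ddx3y, RNAs of the X and Y chromosome, differed between libraries of each genotype (values below), so their mix of sexes differed.

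Cristae are the folds of the inner mitochondrial membrane that hold the respiratory chain. MICOS sits at their necks, the crista junctions, and joins Samm50 in the outer membrane to form a bridge between both membranes. OPA1, a dynamin-like GTPase, fuses inner membranes and narrows the same junctions, and prohibitins form ring-shaped scaffolds in the inner membrane that bind the proteases which process OPA1. The series asks how loss of OPA1 alters quiescent muscle stem cells, and the question for these genes is whether the transcripts of OPA1's structural partners differed between KO and WT.

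Values are given in the order of replicates 1 to 3, as CPM (read count scaled by library size with edgeR's TMM factors). The targeted gene, Opa1, had 68.2, 31.4 and 68.8 CPM among WT libraries and 17.5, 34.4 and 27.1 CPM among KO libraries. Its level in the library labelled WT replicate 2 lay between those of KO libraries. The label was kept, and the cause of that level was not tested. Libraries held 41410136 to 56606886 reads in genes. The stem cell marker Pax7 stood at 252 to 453 CPM in the 6 libraries, while the excluded surface genes Ptprc, Ly6a and Pecam1 reached at most 0.651, 19.2 and 22.5 CPM. The highest genes in lists of endothelial, fibro-adipogenic and erythroid markers were Tek (77.8 to 109 CPM), Dpt (600 to 1196 CPM) and Hbb-bs (19.1 to 230 CPM). All other genes of these lists stayed lower, reaching at most 22.5 CPM (Pecam1), 89.7 CPM (Dcn) and 92.7 CPM (Hba-a1). Pdgfra, in the same list as Dpt, reached at most 2.56 CPM. The purity of the sort was not tested. Libraries of the same genotype differed in a list of 24 cell cycle genes, which averaged 4.79, 1.602 and 4.66 on the log2 CPM scale among WT libraries and 5.73, 2.33 and 2.19 among KO libraries. In bulk samples, fewer cells of a type and less RNA per cell cannot be told apart.

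The near-identical copy that bears on the counting of Phb is shown first. The transcribed processed pseudogene Gm7666 (GRCm38 chr15:6653923-6654741, plus strand) carries the whole 816-base coding sequence of Phb (chr11:95666957-95680773, plus strand) with 1 difference, A231G, where positions are counted from the first base of the start codon and the base of Phb comes first. Coding positions 201 to 261 are shown from the GENCODE transcripts, 5′ to 3′, with the differing base in capitals.
Phb: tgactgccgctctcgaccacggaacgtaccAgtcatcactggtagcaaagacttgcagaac
Gm7666: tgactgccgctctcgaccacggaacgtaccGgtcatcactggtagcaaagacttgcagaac
Reads that aligned in more than 1 place were set aside by the counting and enter no gene's value. Other genes with at least 90% identity over at least 50% of the coding sequence were found for Phb (5 in all), Chchd2 (5) and Apoo (1), and for none of the other 7 genes. HTSeq's tally of non-unique alignments made up 14.8% to 24.6% of the sum of all counts and tallies in a library. It was lowest in KO replicate 3 and highest in KO replicate 2, and it need not equal a share of reads. The levels of Phb, Chchd2 and Apoo are therefore uncertain. The counts that did fall on the copies were few. They made up 1.33% to 2.66% of the sum for Phb, 2.63% to 5.02% for Chchd2 and 4.84% to 6.75% for Apoo. Adding them left the log2 fold changes at -0.02, -0.24 and 0.30, but cannot recover or bound the reads set aside. Among the copies of Chchd2, Zbed5 is a protein-coding gene, at 3.64 to 12.9 CPM.

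RefSeq windows (GRCm38.p6) from 250 bases before to 30 bases after the start site matched 9 of the 10 genes, Chchd2 being the exception, and were searched on both strands for the letters CACGTG (the E-box, bound by MYC, USF and clock factors), GCGCA and GCGC with 1 base between them (NRF1-type), CCGGAAG (ETS-type), CCAAT (NF-Y) and GGGCGG (SP1). Those shown are of Phb, Phb2 and Chchd3, whose levels were highest in the same 3 libraries, and Chchd10, which was lowest in those libraries (values below). Capitals mark the motifs found, and in Phb2 a pair of GGGCGG matches abut each other on opposite strands.
Phb (chr11:95666707-95666986, plus strand): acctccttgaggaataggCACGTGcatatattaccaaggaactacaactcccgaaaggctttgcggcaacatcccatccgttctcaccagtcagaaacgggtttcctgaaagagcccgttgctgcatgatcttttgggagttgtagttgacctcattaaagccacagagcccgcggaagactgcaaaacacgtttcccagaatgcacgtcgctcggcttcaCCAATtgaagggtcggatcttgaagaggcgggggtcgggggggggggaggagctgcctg
Phb2 (chr6:124712039-124712318, plus strand): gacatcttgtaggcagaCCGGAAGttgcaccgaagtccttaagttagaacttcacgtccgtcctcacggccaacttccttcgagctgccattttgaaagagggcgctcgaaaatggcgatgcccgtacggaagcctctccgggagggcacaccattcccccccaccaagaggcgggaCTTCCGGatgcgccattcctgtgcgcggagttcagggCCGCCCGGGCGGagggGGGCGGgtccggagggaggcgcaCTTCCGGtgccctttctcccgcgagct
Chchd3 (chr6:33060231-33060510, minus strand): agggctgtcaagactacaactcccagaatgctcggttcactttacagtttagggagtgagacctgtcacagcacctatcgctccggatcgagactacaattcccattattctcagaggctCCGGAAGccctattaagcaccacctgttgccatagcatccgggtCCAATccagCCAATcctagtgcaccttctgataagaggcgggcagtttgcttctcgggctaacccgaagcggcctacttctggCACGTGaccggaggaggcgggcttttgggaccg
Chchd10 (chr10:75932880-75933159, plus strand): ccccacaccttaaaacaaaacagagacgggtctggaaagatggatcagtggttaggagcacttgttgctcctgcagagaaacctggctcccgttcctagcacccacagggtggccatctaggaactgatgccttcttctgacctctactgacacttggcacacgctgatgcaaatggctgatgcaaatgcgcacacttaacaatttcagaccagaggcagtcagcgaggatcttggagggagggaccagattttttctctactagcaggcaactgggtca
The E-box letters stood in 2 of the 9 windows (Phb and Chchd3), against 6.79% of all 32851 RefSeq windows of that length. ETS-type letters stood in 3 of 9 (Immt, Chchd3 and Phb2, the last with 3 matches), against 8.45% of all windows, and the NRF1-type letters in 1 of 9 (Immt), against 4.41%. CCAAT was found in 6 of 9 windows (36.1% of all) and GGGCGG in 3 of 9 (34.7%). The windows of Chchd10 and Apoo held none of the 5. A match describes these letters and is not a binding site.

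No cristae organising gene passed the test between KO and WT. By edgeR's quasi-likelihood test 0 of the 10 were called at an adjusted p under 0.05 and 0 had an unadjusted p under 0.05, and DESeq2 and limma voom likewise called 0 and had 0 at that unadjusted p. Over all 18832 genes edgeR called 0 (0%) and had 393 at an unadjusted p under 0.05 (2.09%; 1.00% lower and 1.08% higher in KO), while DESeq2 called 20. Log2 fold changes, KO minus WT, ran from -0.24 (Chchd2) to 0.31 (Apoo), 8 negative and 2 positive, with a median of -0.05 and an edgeR adjusted p of 0.99998 for each. Over all genes the median was 0.01 and 49.0% of values were negative. The KO and WT ranges overlapped for all 10, where 6.55% of all genes had ranges that did not overlap (3.12% lower and 3.43% higher in KO). Without the library labelled WT replicate 2, log2 fold changes of the 10 ran from -0.33 to 0.20 and edgeR again called 0, with 0 at an unadjusted p under 0.05. A missed threshold does not show equality, so 95% intervals are given for the fit of all 6 libraries, the one labelled WT replicate 2 included. In that fit 9 of 10 excluded a level at or below 0.5-fold, the exception being Chchd10. A 2-fold or higher level was excluded for 9 of 10, the exception being Apoo, and 6 of 10 lay within 1.5-fold in either direction. These counts were not made with a library left out. For Opa1 the KO mean was 46.9% of the WT mean, a log2 fold change of -1.09. It was -1.38 when the library labelled WT replicate 2 was left out. Counts cover the whole gene, so they do not show how much of the remaining Opa1 RNA was intact. In the plot of fold changes Opa1 stands alone to the left of the other genes.

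**Figure D1:**
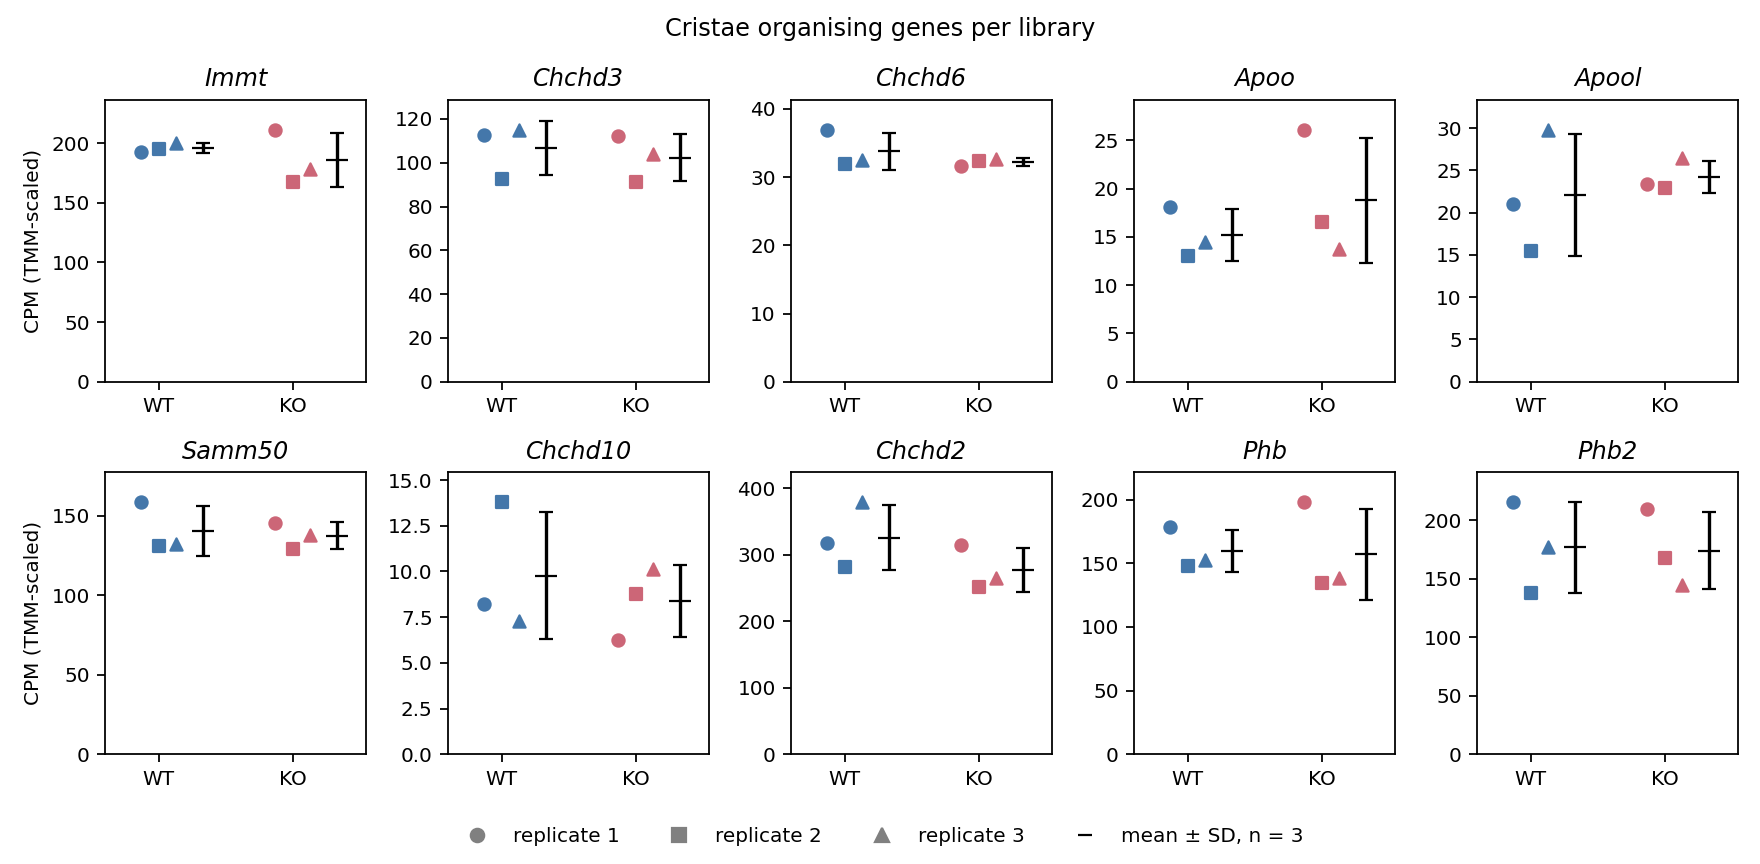
Normalised read count (CPM, TMM-scaled, linear axis from 0) of each of the 10 genes in every library, by genotype; marker shape gives the replicate and bars give mean ± SD (n = 3). The WT and KO points overlap in each panel, and the scatter relative to the level is widest for Apoo, Apool and Chchd10.

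Immt (Mic60), the core MICOS subunit that holds the complex together, varied little. It stood at 192, 195 and 200 CPM across the WT libraries, and the KO libraries had 211, 167 and 178 CPM. KO replicate 1 was the highest library and the other KO libraries the lowest, so the WT values lay between KO values. The means were 196 ± 4.12 CPM in WT and 186 ± 22.8 CPM in KO (SD, n = 3), a log2 fold change of -0.08 (SE 0.13, 95% interval -0.39 to 0.23, edgeR adjusted p 0.99998). The gene lies on chromosome 6 from 71831331 to 71877388 (plus strand, ENSMUSG00000052337.15). Gm44771, which had at most 0.3005 CPM, overlaps it by 185 exon bases on the opposite strand.

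Chchd3 (Mic19) and Chchd6 (Mic25), coiled-coil-helix proteins that bind Immt on the intermembrane side, were also close between the groups. Chchd3 stood at 113, 92.5 and 115 CPM across the WT libraries, and the KO libraries had 112, 91.1 and 104 CPM. The library labelled WT replicate 2 and KO replicate 2 were the lowest, and the other 4 libraries lay higher. Its log2 fold change was -0.06 (SE 0.15, interval -0.41 to 0.29). Chchd6 stood at 36.9, 31.9 and 32.5 CPM across the WT libraries, and the KO libraries had 31.6, 32.4 and 32.7 CPM, and only WT replicate 1 lay apart from the rest. It was the steadiest of the 10, with a coefficient of variation of 5.91% over the 6 libraries, and its log2 fold change was -0.07 (SE 0.15, interval -0.42 to 0.28). Chchd3 lies on chromosome 6 from 32790976 to 33060260 and Chchd6 on the same chromosome from 89383146 to 89595652, both on the minus strand. Both log2 fold changes came to 0 with a library left out, Chchd3 without WT replicate 3 or KO replicate 2 and Chchd6 without WT replicate 1.

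Apoo (Mic26) and Apool (Mic27), apolipoprotein-like subunits that bind the cardiolipin-rich membrane, were the MICOS genes with the widest spread. Apoo stood at 18.2, 12.99 and 14.5 CPM across the WT libraries, and the KO libraries had 26.1, 16.6 and 13.7 CPM. KO replicate 1 was the highest library, and KO replicate 3 lay between the WT values. The log2 fold change of 0.31 (SE 0.30, interval -0.39 to 1.01) rested on KO replicate 1 and was -0.01 without it. Apool stood at 20.96, 15.4 and 29.8 CPM across the WT libraries, and the KO libraries had 23.4, 22.9 and 26.4 CPM, so the KO libraries lay within the WT range. Its log2 fold change was 0.14 (SE 0.26, interval -0.49 to 0.76), and -0.07 without the library labelled WT replicate 2.

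Apoo and Apool are both X-linked, on chromosome X from 94367117 to 94417093 and from 112311334 to 112372755 (plus strand), and both were lowest in the library labelled WT replicate 2. That library had Xist, the RNA of the inactive X chromosome, at 0.0209 CPM, against 244 to 508 CPM in the other 5. Ddx3y, on the Y chromosome, was at 226 CPM there. WT replicate 3 and KO replicates 2 and 3 held both RNAs, with Ddx3y at 23.3, 22.9 and 90.2 CPM, while WT replicate 1 and KO replicate 1 had Ddx3y at 0.0354 and 0.141 CPM. Xist and Ddx3y were picked after their values were seen, and their part in the levels of Apoo and Apool was not tested.

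Samm50, the outer membrane barrel assembly protein that anchors MICOS, stood at 159, 131 and 132 CPM across the WT libraries, and the KO libraries had 146, 129 and 138 CPM. WT replicate 1 was the highest library, and the other 5 lay close together. Its log2 fold change was -0.03 (SE 0.13, interval -0.34 to 0.28), and 0.07 without WT replicate 1. The gene lies on chromosome 15 from 84192241 to 84217267 (plus strand). Samm50 overlaps Gm49513 on its own strand by 111 exon bases, so its level is uncertain there whatever the strand setting of the counting. Among the metaxins, which complete the bridge beside Samm50, log2 fold changes were 0.01 for Mtx1 (SE 0.14), -0.04 for Mtx2 (SE 0.25) and -0.05 for Mtx3 (SE 0.18). Mtx1 turned to between -0.04 and -0.01 without the library labelled WT replicate 2 or KO replicate 2 or 3. Mtx2 moved to -0.34 without KO replicate 1, its highest library at 66.8 CPM, and to 0.14 without KO replicate 2, its lowest at 34.2 CPM, and was 0.01 without WT replicate 1 or KO replicate 3. Mtx3 turned to 0.04 when the library labelled WT replicate 2 was left out, and to 0.09 when KO replicate 1 was.

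Chchd2 and Chchd10, paralogous small proteins of the intermembrane space that interact with MICOS, stood at opposite ends of the abundance range. Chchd2 stood at 318, 281 and 379 CPM across the WT libraries, and the KO libraries had 315, 251 and 265 CPM. WT replicate 3 was the highest library, and KO replicates 2 and 3 were the lowest. It had the most negative log2 fold change of the 10, -0.24 (SE 0.16, interval -0.62 to 0.14, unadjusted p 0.186, edgeR adjusted p 0.99998), and -0.11 without WT replicate 3. Its 5 copies together were also highest in WT replicate 3, at 20.03 CPM against 7.09 to 12.2 CPM in the other libraries. Zbed5 alone had 12.9 CPM in WT replicate 3. With the counts of the copies added, the log2 fold change of Chchd2 stayed at -0.24. Chchd2 lies on chromosome 5 from 129881156 to 129887470 (minus strand).

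Chchd10 stood at 8.24, 13.8 and 7.31 CPM across the WT libraries, and the KO libraries had 6.27, 8.78 and 10.2 CPM. Its lowest library held 312 raw counts, where the highest of Chchd2 held 20259. The library labelled WT replicate 2 was the highest and KO replicate 1 the lowest, so the KO range crossed that of WT. Its log2 fold change was -0.22 (SE 0.35, interval -1.05 to 0.61), and 0.11 without the library labelled WT replicate 2. Chchd10 is abundant in differentiated muscle. All 6 mature fibre markers (Acta1, Ckm, Myh4, Myh1, Tnnt3 and Mb) were detected, and their sum came to 221, 510 and 133 CPM across the WT libraries, and to 151, 204 and 372 CPM across the KO libraries. The libraries with the 2 highest sums, the one labelled WT replicate 2 and KO replicate 3, were also those with the highest Chchd10. In them Acta1 alone had 341 and 234 CPM. Ckm, Myh4 and Tnnt3 also had their 2 highest values there. Mb was highest in the library labelled WT replicate 2, then in WT replicate 1. Myh1 went otherwise and was highest in WT replicate 3, at 18.6 CPM. The part of fibre RNA in the level of Chchd10 was not tested. Mmp11 overlaps Chchd10 (chromosome 10, 75933130 to 75937747, plus strand) by 155 exon bases on the opposite strand, and the strand setting of the counting is not given. It stood at 17.8, 7.29 and 5.14 CPM across the WT libraries, and the KO libraries had 16.5, 14.0 and 8.35 CPM, an order unlike that of Chchd10.

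The prohibitins Phb and Phb2, which alternate in the inner membrane ring, had, of the 10, the log2 fold changes nearest to 0. Phb stood at 179, 148 and 153 CPM across the WT libraries, and the KO libraries had 198, 135 and 139 CPM. Phb2 stood at 215, 138 and 178 CPM across the WT libraries, and the KO libraries had 209, 168 and 145 CPM. For both genes the 3 highest libraries were WT replicates 1 and 3 and KO replicate 1. Their log2 fold changes were -0.03 for Phb (SE 0.19, interval -0.46 to 0.41) and -0.02 for Phb2 (SE 0.21, interval -0.52 to 0.48). Without WT replicate 1 they were 0.06 and 0.14, without KO replicate 3 they were 0.06 and 0.09, and Phb was 0.05 without KO replicate 2. Phb2 (chromosome 6, 124712336 to 124716950, plus strand) overlaps the antisense gene Gm15884, which had at most 0.672 CPM, by 141 exon bases. It also overlaps the snoRNA gene Gm23547 on its own strand by 155 exon bases, so the level of Phb2 is uncertain there whatever the strand setting.

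**Figure D2:**
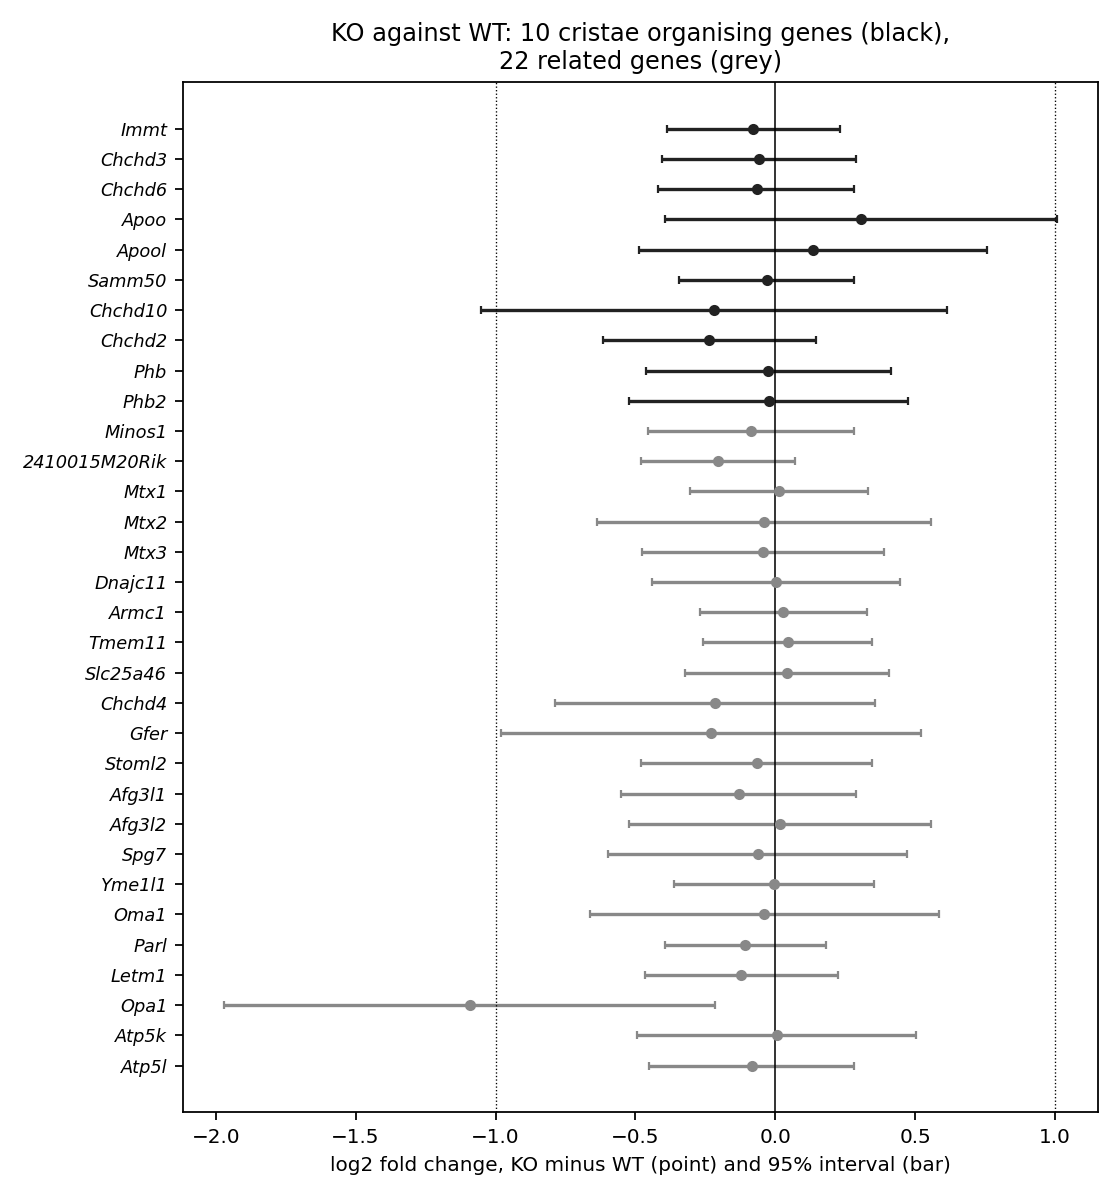
Log2 fold change, KO minus WT, with its 95% interval for the 10 cristae organising genes (black) and 22 related genes (grey) from the edgeR fit over all genes; dotted lines mark a change of 1 on the log2 scale in either direction. Apart from Opa1, at -1.09, the points lie between -0.24 and 0.31 and their intervals cross 0.

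The levels within the complex were compared per length, as TPM (counts divided by length and scaled to the same total in each library) over the exons of protein-coding transcripts. Averaged over the 6 libraries, Chchd2 was the most abundant at 747 ± 112 TPM, followed by Phb2 at 296 ± 51.1, Phb at 191 ± 27.4, Immt at 150.0 ± 10.9 and Chchd3 at 97.6 ± 9.42 TPM (SD, n = 6). Samm50 at 68.1 ± 4.86 and Chchd6 at 66.5 ± 3.60 TPM came next, then Apool at 38.7 ± 8.45, Apoo at 30.7 ± 8.41 and Chchd10 at 13.9 ± 4.05 TPM. The ranges of neighbours in this order did not overlap except for 3 pairs. Samm50 was above Chchd6 in 3 of 6 libraries and Apool above Apoo in 5 of 6, while Phb2 was above Phb in 6 of 6 although their ranges crossed. The order depends on the length taken for a gene. Over all annotated exons, retained introns included, Immt dropped from place 4 to place 6, at 49.8 TPM, and Phb (168 TPM) stood above Phb2 (140.0 TPM). By that length Apoo moved from place 9 to place 7, at 40.2 TPM, above Chchd6 (38.7 TPM) and Apool (19.7 TPM), so the order of Apool and Apoo turned.

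**Figure D3:**
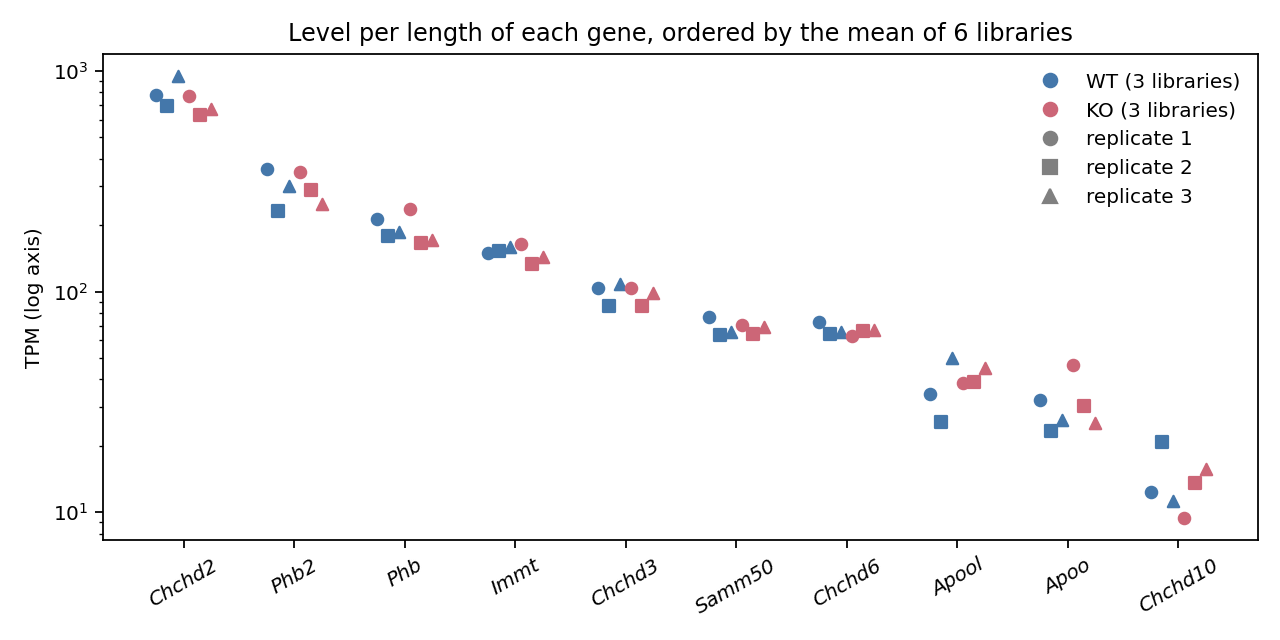
Level per length (TPM, log axis) of the 10 genes in every library, ordered by the mean over the 6 libraries; colour gives the genotype and marker shape the replicate. The mean levels run from 747 TPM for Chchd2 to 13.9 TPM for Chchd10, and WT and KO points overlap within each gene.

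Ratios of partners within a library had overlapping ranges in both genotypes. Phb over Phb2, on the TPM scale, was 0.66 ± 0.097 in WT and 0.646 ± 0.0618 in KO (SD, n = 3). Chchd3 over Immt was 0.646 ± 0.072 and 0.656 ± 0.0311, Chchd6 over Chchd3 0.687 ± 0.069 and 0.685 ± 0.0806, and Samm50 over Immt 0.447 ± 0.0568 and 0.464 ± 0.0298. Apool over Apoo was 1.35 ± 0.472 and 1.29 ± 0.475, and it is the ratio whose direction turned with the length over all exons. Chchd10 over Chchd2 was 0.0193 ± 0.00959 and 0.0191 ± 0.00603, so Chchd10 was the minor paralogue in every library. The summed TPM of the 5 MICOS genes came to 392, 351 and 409 across the WT libraries, with 415, 355 and 379 across the KO libraries.

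Some of the 10 genes ordered the libraries alike across genotypes. Phb, Phb2, Chchd2 and Chchd3 were each higher in WT replicates 1 and 3 and KO replicate 1 than in every other library, an ordering that 10.8% of all tested genes showed. Chchd10 had the reverse ordering, shown by 9.81% of all genes. The same 3 libraries had the highest level of the cell cycle list, given above, and the lowest level of the 13 mitochondrially encoded mRNAs, which averaged 6.21, 6.83 and 6.08 on the log2 CPM scale among WT libraries and 6.01, 6.70 and 6.41 among KO libraries. They also had the lowest level of the 12 immediate early genes, which respond quickly to stress and handling, at 8.23, 9.59 and 6.58 on that scale among WT libraries and 8.10, 10.04 and 9.82 among KO libraries. This grouping of libraries was read from these same data, so the shares describe it and do not test it. The part of these lists in the orderings was not tested. With the cell cycle level of each library as a covariate, log2 fold changes of the 10 genes ran from -0.25 to 0.31 and 0 were called by edgeR. The coefficient of variation over the 6 libraries ran from 5.91% (Chchd6) to 29.1% (Chchd10), with a median of 15.5% beside 17.9% for the 9674 tested genes whose mean log2 CPM was at least that of Chchd10.

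**Figure D4:**
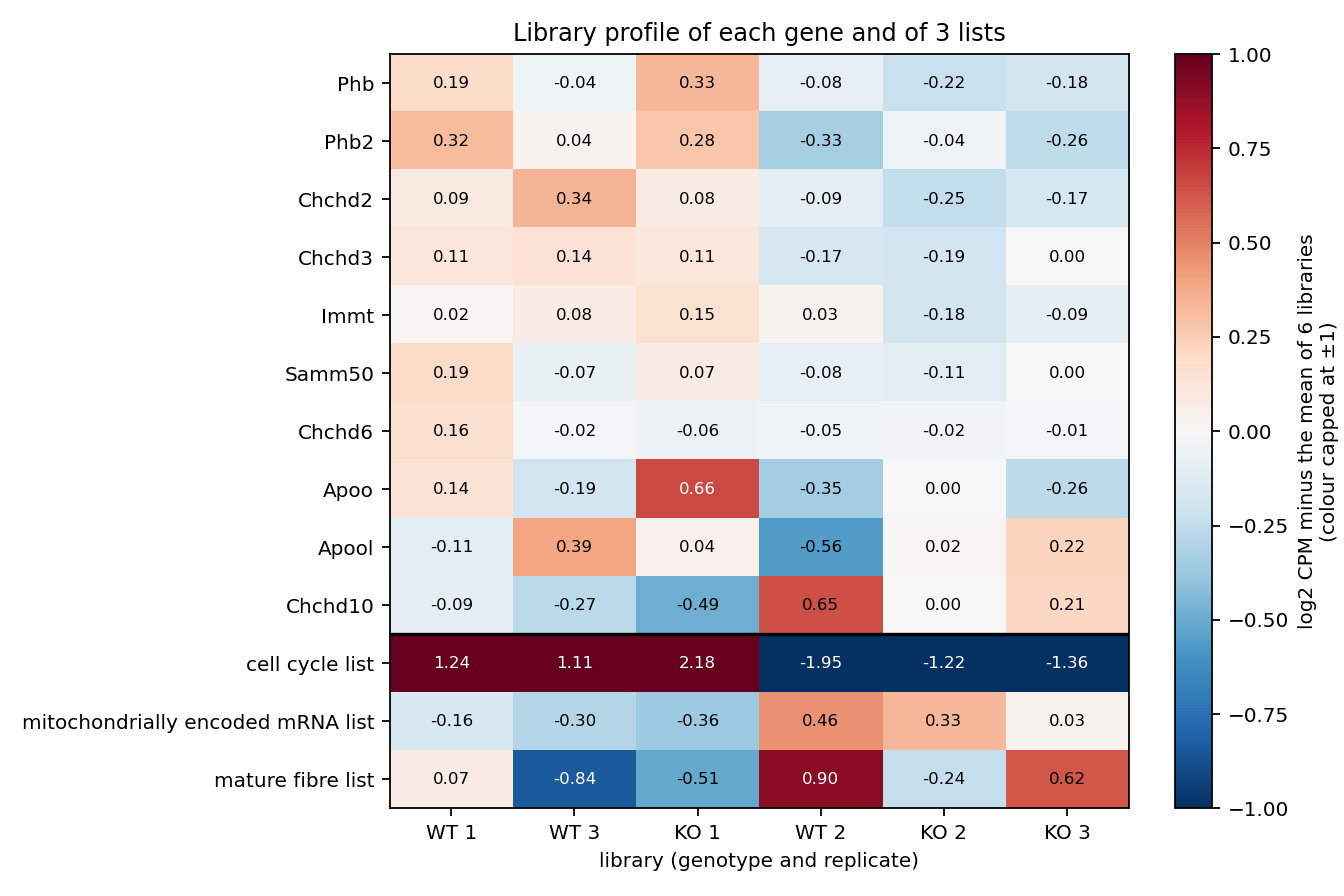
Log2 CPM minus the mean of the 6 libraries for the 10 genes and for the mean of 3 gene lists (below the line); columns are libraries, with WT replicates 1 and 3 and KO replicate 1 placed first, and the colour is capped at 1 in either direction. Phb, Phb2, Chchd2 and Chchd3 have their 3 highest values in the first 3 columns, and Chchd10 has its 3 lowest there.

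The library profiles most like those of the 2 most variable genes were found among 8251 tested genes whose mean log2 CPM reached 4 or more, by the root mean square difference of log2 CPM after centring over the 6 libraries. For Chchd10 they were Apoe (0.084), Slc12a2 (0.085) and mt-Nd1 (0.087), the last a mitochondrially encoded subunit of complex I. For Apoo they were Ddx39 (0.056), Soat1 (0.062) and Pola1 (0.066), of which Pola1 encodes the catalytic subunit of DNA polymerase alpha. These are the nearest of many genes over 6 libraries and describe likeness only.

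Among 22 related genes of the same machinery, edgeR called 0 and 1, Opa1, had an unadjusted p under 0.05 (0.0215, adjusted p 0.99998). That unadjusted p from edgeR was 0.0616 with the replicate number as a block. It was 0.0551 to 0.0687 when WT replicate 1 or 3 or KO replicate 1 or 3 was left out. In those settings 0 of the 22 were under 0.05. In every other setting the unadjusted p of Opa1 was under 0.05. It ran from 0.00329 (edgeR without the library labelled WT replicate 2) to 0.047 (edgeR with the cell cycle covariate). DESeq2 gave 0.00357, with an adjusted p of 0.8173. Log2 fold changes of the other 21 ran from -0.23 to 0.04. Minos1 (Mic10), the small MICOS subunit that curves the membrane, stood at 173, 147 and 169 CPM across the WT libraries, and the KO libraries had 181, 146 and 134 CPM, and it too was higher in WT replicates 1 and 3 and KO replicate 1 than in the other libraries. Its log2 fold change was -0.09 (SE 0.16), and 0 without KO replicate 3.

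2410015M20Rik (Mic13), which links Mic10 to the rest of MICOS, was the only one of the 22 whose groups did not overlap, where 6.55% of all genes behave so. It stood at 170.4, 158 and 167 CPM across the WT libraries, and the KO libraries had 154, 141 and 136 CPM, so every KO library lay below every WT library. The KO mean was 86.8% of the WT mean, a log2 fold change of -0.20 (SE 0.12, interval -0.48 to 0.07), and it did not pass the test (unadjusted p 0.124, edgeR adjusted p 0.99998).

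Among partners of the prohibitin ring, log2 fold changes were -0.07 for Stoml2 (SE 0.18), a stomatin-like scaffold, 0.02 for Afg3l2 (SE 0.23), a matrix-facing protease, and 0 for Yme1l1 (SE 0.15) and -0.04 for Oma1 (SE 0.26), the proteases that cleave OPA1. Leaving out a library moved each of these 4 across 0, Stoml2 to 0.02 (WT replicate 1 or KO replicate 3), Afg3l2 to -0.15 (KO replicate 1), -0.12 (WT replicate 3) and -0.04 (KO replicate 2), Yme1l1 to 0.06 (the library labelled WT replicate 2) and 0.05 (WT replicate 3 or KO replicate 1), and Oma1 to 0.09 (WT replicate 1 or KO replicate 1), 0.02 (WT replicate 3) and 0.03 (KO replicate 3). Chchd4 and Gfer, the relay that imports and oxidises coiled-coil-helix proteins such as Chchd3, had -0.22 (SE 0.24) and -0.23 (SE 0.32). Chchd4 was -0.38 when the library labelled WT replicate 2 was left out and -0.03 when WT replicate 3 was. Gfer was -0.60 without KO replicate 1 and -0.03 without KO replicate 3.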

How the data were processed

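Each of the 6 libraries came as a table of Ensembl gene IDs and raw read counts, as deposited by the authors. The submitters' processing notes name HTSeq 0.6.1p2, STAR 2.6.0c, cutadapt 2.5, Trim Galore 0.5.0 and build GRCm38; no annotation release or strand setting is given in the sources used here. Rows of HTSeq's own tallies (5 per table) entered no total of reads in genes and no fit. Of the sum of all counts and tallies, unassigned reads came to 11.2% to 17.0% and ambiguous ones to 1.21% to 1.42%.

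Symbols, positions and lengths came from GENCODE M21 by gene ID without version, and near-identical copies from BLAST 2.17.0. KO was compared with WT in R 4.3.3 by edgeR 4.0.16 (quasi-likelihood test, robust estimation, TMM scaling, filterByExpr, no covariate), with Benjamini-Hochberg adjustment over all 18832 tested genes and calls at 0.05. The prior count was 0.125 for fold changes and 2 for log2 CPM, and each SE was taken as |log2 fold change| divided by the root of F. DESeq2 1.42.0 and limma 3.58.1 (voom) were alternatives. The scripts were tested on simulated data with a smaller common spread between libraries than here. That checks the code and does not measure power or interval coverage in these data. Each of the 10 genes had at least 312 raw counts per library.

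The text names all 10 genes, 12 of the 22 related genes by role, and for the 2 genes with the widest range the 3 genes most like each. Related and marker lists and all members were chosen with earlier results of these data known. Xist, Ddx3y and the overlapping genes and copies were added after values were seen.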

Additional observations from a re-analysis of the deposited data

How the results depend on the processing

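No setting called any of the 10 genes or of the 22 related genes. Over all genes, DESeq2 called 20 where edgeR called 0, and the cause was not tested. The background of 393 genes with unadjusted p under 0.05 became 864 with no filter, where 32237 genes were tested in place of 18832. Leaving out a library gave 818 (KO replicate 1), 693 (WT replicate 1), 614 (the library labelled WT replicate 2), 464 (WT or KO replicate 3) or 324 (KO replicate 2). Scaling, limma voom and the absence of a filter turned only values that stood near 0. Mtx1 came to 0 with upper-quartile scaling and -0.01 without the filter, Afg3l2 to 0 with upper-quartile scaling and voom and -0.01 without the filter, Yme1l1 to 0.01 with voom, and Phb2 to 0.02 with the cell cycle covariate. With a library left out, log2 fold changes ranged from -0.18 to -0.03 for Immt, -0.15 to 0 for Chchd3, -0.11 to 0 for Chchd6, -0.01 to 0.49 for Apoo, -0.07 to 0.41 for Apool, -0.08 to 0.07 for Samm50, -0.39 to 0.11 for Chchd10, -0.34 to -0.11 for Chchd2, -0.23 to 0.06 for Phb and -0.18 to 0.14 for Phb2. Among the named related genes they ranged from -0.22 to 0 for Minos1, -0.04 to 0.07 for Mtx1, -0.34 to 0.14 for Mtx2, -0.15 to 0.09 for Mtx3, -0.24 to 0.02 for Stoml2, -0.15 to 0.20 for Afg3l2, -0.12 to 0.06 for Yme1l1, -0.29 to 0.09 for Oma1, -0.38 to -0.03 for Chchd4, -0.60 to -0.03 for Gfer, -0.26 to -0.17 for 2410015M20Rik and -1.38 to -0.87 for Opa1. Where 1 library is left out, its group holds 2 libraries.

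The labels do not say whether the replicate numbers pair the libraries. Deviations from the group means correlated across genes at 0.245, 0.105 and -0.072 for numbers 1 to 3. For unlike numbers the correlations ran from -0.285 to 0.207. Deviations within a group sum to 0, which ties these values together, so they cannot decide whether the numbers pair the libraries. With the replicate block edgeR called 0 genes, Yme1l1 was 0 with the sign turned, and Opa1 was -1.07 with an unadjusted p of 0.0616. The addition of copy counts and the length over all exons were chosen after the data were seen.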
